A study of Mus musculus with 21 samples.

Results

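The genes described here are the 3 Foxa genes (*Foxa1*, *Foxa2* and *Foxa3*) and 7 further transcription factor genes of endoderm and anterior mesendoderm (*Sox17*, *Hhex*, *Gsc*, *Otx2*, *Lhx1*, *Eomes* and *Mixl1*). They were taken as a list of gene symbols that was drawn up with earlier results of these data known, and all 10 are among the 23983 genes of the expression table. The question was whether notochord progenitors made in culture carry anterior or endodermal transcripts that notochord progenitors of the embryo lack, and how the binding of T and Foxa2 lies around these genes.

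Foxa proteins are winged helix factors that open closed chromatin and are needed for the node, the notochord, the floor plate and the gut. *Sox17* and *Hhex* mark definitive endoderm, the latter mainly its anterior part, while *Gsc*, *Otx2* and *Lhx1* act in the anterior primitive streak and the prechordal plate, the tissue ahead of the notochord that shapes the head. *Eomes* and *Mixl1* act earlier, in the streak, where mesoderm and endoderm part. T (Brachyury) is a T-box factor of the primitive streak and the notochord.

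RNA-seq covered 9 libraries, 1 per condition. The 6 embryonic libraries came from pooled embryos made by aggregation with F1G4 mouse ES cells (C57BL/6N x SV129 in the labels) that carry the BAC reporters T::H2B-Venus, Noto::H2B-mCherry and Foxa2::H2B-mTurquoise. At E8.5 (Theiler stage 12) and E9.5 (Theiler stage 16), NotoPs (notochord progenitors) were sorted from caudal ends as Noto+/T+/Foxa2+ cells, MPs (mesodermal progenitors) from caudal ends as T+/Noto-/Foxa2- cells, and trunk notochord ("trunk Noto") from trunks as T+/Noto+/Foxa2+ cells. The paper lists a high Foxa2 gate for both trunk libraries and NotoP E9.5, but not for NotoP E8.5, and a high T gate for MPs. Its trunk pool of E8.5 spanned a wider range of somite stages than its NotoP pool of E8.5. The 3 cultured libraries came from F1G4 cells that all carry TRE::Foxa2-IRES-EGFP at Rosa26, the BAC T::H2B-mCherry-T2A-irTA, which makes the transactivator where T is active, and the BAC Noto::H2B-mTurquoise. All 3 cultures had 10 ng/ml bFGF from day 1 to 3. NMPdiff (neuromesodermal progenitors) were T+/Noto- cells given 5 µM CHIR99021 from day 2 to 3, whereas MPdiff (T+/Noto-) and NotoPdiff (Noto+/T+) had CHIR99021 from day 2 to 4. Only NotoPdiff also had 1 ng/ml doxycycline from day 2 to 4, which induces the *Foxa2* transgene. T and Foxa2 ChIP-seq (1 library each) was made on whole NotoPdiff-enriched cultures that were not sorted.

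Each condition has 1 library, the stages were kept as separate conditions, and no test was made, so no error or p-value is given. A gene was called different when its FPKM values, each with 1 added, were at least 3-fold apart (a log2 ratio of 1.58) in the same direction in every pair compared. Folds below are on that scale, which understates changes of low genes. Such a call needs at least 2 FPKM in 1 library of each pair, and background percentages are over the genes that reach this. A fold in bulk RNA cannot tell fewer cells with a transcript from less transcript per cell. Embryonic libraries were sequenced on a HiSeq4000 and cultured libraries on a NextSeq instrument, so instrument and origin cannot be told apart in any comparison of culture with embryo.

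The sort markers followed the labels. *Noto* was at 152 and 164 FPKM in NotoPs of E8.5 and E9.5, at 22.5 FPKM in NotoPdiff, and listed at 0 in MPs of both stages and in MPdiff. *Shh* was at 30.2 FPKM in NotoPdiff against 161 and 178 FPKM in NotoPs. *T* was above 25 FPKM in all 9 libraries. A value of 0 is no proof of silence, since 44.7% to 58.1% of genes are listed at 0 in the embryonic and 31.6% to 34.4% in the cultured libraries. Among genes that reach 5 FPKM in all 8 remaining libraries, 59 are listed at 0 in MP E8.5, 38 in trunk Noto E9.5, 8 in trunk Noto E8.5, 1 in NMPdiff and 0 in the remaining 5 libraries, both NotoP libraries among them. Of the embryonic libraries, MP E8.5 was made from the fewest cells. Both trunk libraries were also made from fewer cells than the NotoP libraries and MP E9.5.

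**Figure D1:**
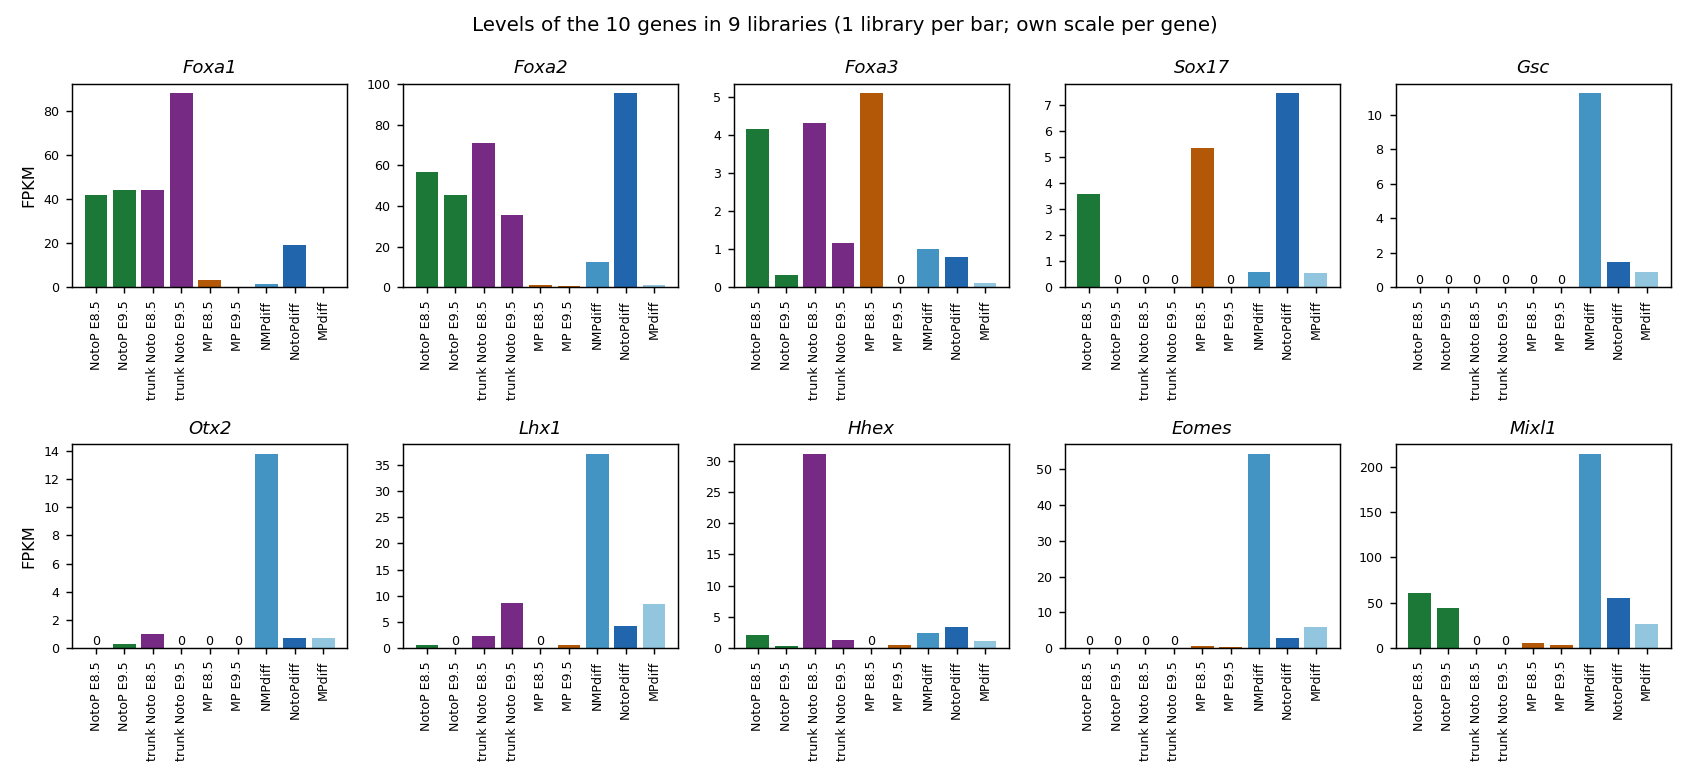
FPKM of each of the 10 genes (vertical axis, own scale per gene) in the 9 libraries; each bar is 1 library, and "0" marks a gene listed at 0. *Foxa1* and *Foxa2* are high in all NotoP, trunk and NotoPdiff libraries, *Gsc*, *Otx2*, *Lhx1*, *Eomes* and *Mixl1* are highest in NMPdiff, *Sox17* is highest in NotoPdiff at 7.46 FPKM, and *Hhex* stands out only in trunk Noto E8.5 at 31.0 FPKM.

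Within the culture system, NotoPdiff held more *Foxa1*, *Foxa2* and *Sox17* than MPdiff, and none of the 10 genes was lower by the 3-fold rule. Of the 10 genes, 7 had enough FPKM to be called in this comparison. These 3 of 10 stand beside 3.38% of all genes called higher, and the 0 of 10 beside 0.964% called lower. Against NMPdiff, the same 3 genes were higher in NotoPdiff (background 2.83%), and 5 of 10 were lower, namely *Gsc*, *Otx2*, *Lhx1*, *Eomes* and *Mixl1* (background 1.72%), with 9 of 10 that could be called. Both comparisons use the same NotoPdiff library and are not independent.

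Set against NotoPs of both embryonic stages, NotoPdiff was called higher for *Lhx1* and *Eomes* only, 2 of 10 genes beside 2.59% of all genes, and lower for 0 of 10 beside 1.34%. Here 7 of 10 could be called, but only *Foxa1*, *Foxa2* and *Mixl1* reached 2 FPKM in NotoPs of both stages. No other member could have been called lower, so *Lhx1* and *Eomes* could only be called higher. The same comparison of mesoderm, MPdiff against MPs of both stages, also called *Lhx1* and *Eomes* higher, and *Mixl1* with them. That is 3 of 10 genes beside 2.37% of all genes, with 0 of 10 lower beside 0.81%. Only these 3 could be called, so the counts say nothing of the other 7. *Lhx1* and *Eomes*, below 2 FPKM in MPs of both stages, could again only be called higher. Within the embryo, NotoPs exceeded MPs at both stages for *Foxa1*, *Foxa2* and *Mixl1* (3 of 10, background 3.21%), and 0 were lower (background 0.582%). Again only these 3 could be called, and the other 7 could not have been called lower. Of these, *Foxa2* was a criterion of the sort. Trunk notochord differed from NotoPs at both stages only by lower *Mixl1* (1 of 10, background 2.31%), with 0 of 10 higher (background 2.05%) and 4 of 10 that could be called.

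**Figure D2:**
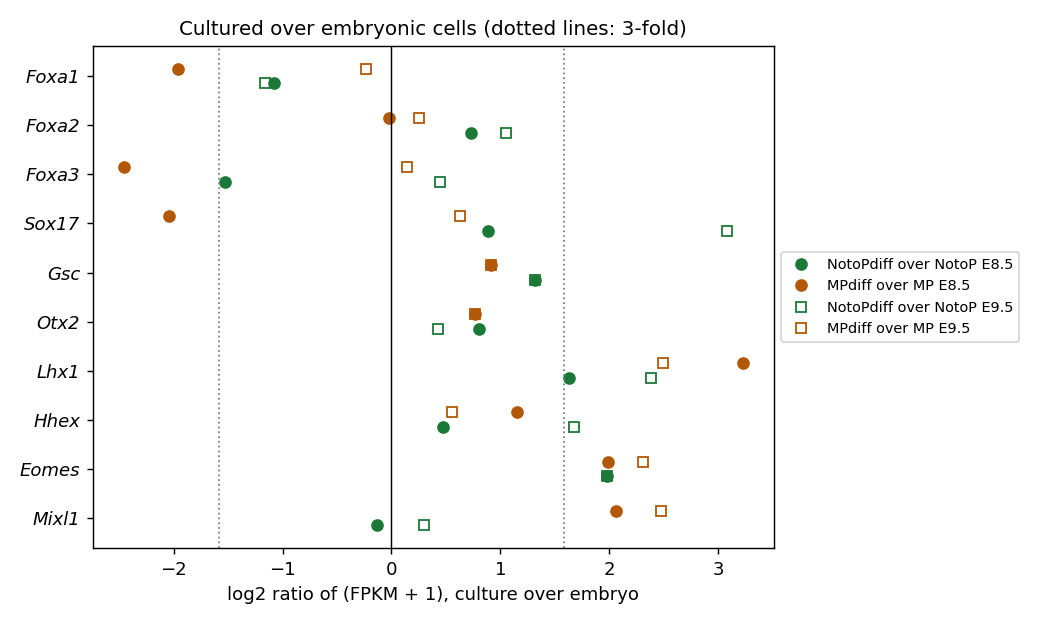
Log2 ratio of (FPKM + 1) in cultured over embryonic cells for each gene (horizontal axis), with NotoPdiff over NotoPs in green and MPdiff over MPs in orange, filled circles for E8.5, open squares for E9.5, and dotted lines at 3-fold. *Lhx1* and *Eomes* lie beyond 3-fold in all 4 pairs, *Mixl1* only in the MP pairs; where the embryonic value is 0, as for *Gsc* in all 4 pairs, the ratio is set by the added 1.

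Around the 10 genes, 21 of 6875 T peaks and 28 of 22684 Foxa2 peaks had their summit within 100 kb of a start site. A T peak lay near 8 of 10 genes, all but *Foxa3* and *Hhex*, where 44.7% of 19627 coding genes have one. All 10 had a Foxa2 peak, beside 74.3% of coding genes. For 2 genes, *Foxa2* and *Lhx1*, a T peak overlapped a Foxa2 peak, beside 9.15% of coding genes. Median fold enrichment at the summit was 8.32 for T peaks near the 10 genes and 7.45 for all T peaks, and for Foxa2 peaks 6.56 and 7.19. A peak within 100 kb is not assigned to a gene by these data, and another coding start was nearer for 1 of the 21 T peaks and 10 of the 28 Foxa2 peaks.

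Binding motifs were searched as exact letters on both strands within 50 bp of each summit. The T motif was AGGTGTGA or its shorter form TCACAC, whose reverse complement is the end of the longer form, and the forkhead motif was TGTTTAC or TATTTAC. A T motif lay at 5 of the 21 T summits, beside 23.4% of all T summits, and a forkhead motif at 6 of the 28 Foxa2 summits, beside 18.5% of all Foxa2 summits. At positions 10 kb from the summits, the shares over all peaks were 6.20% for the T motif and 3.36% for the forkhead motif. The sequences below are 101 bases centred on a summit, on the plus strand of GRCm38, read 5′ to 3′, with matches to either motif in capitals.

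**Figure D3:**
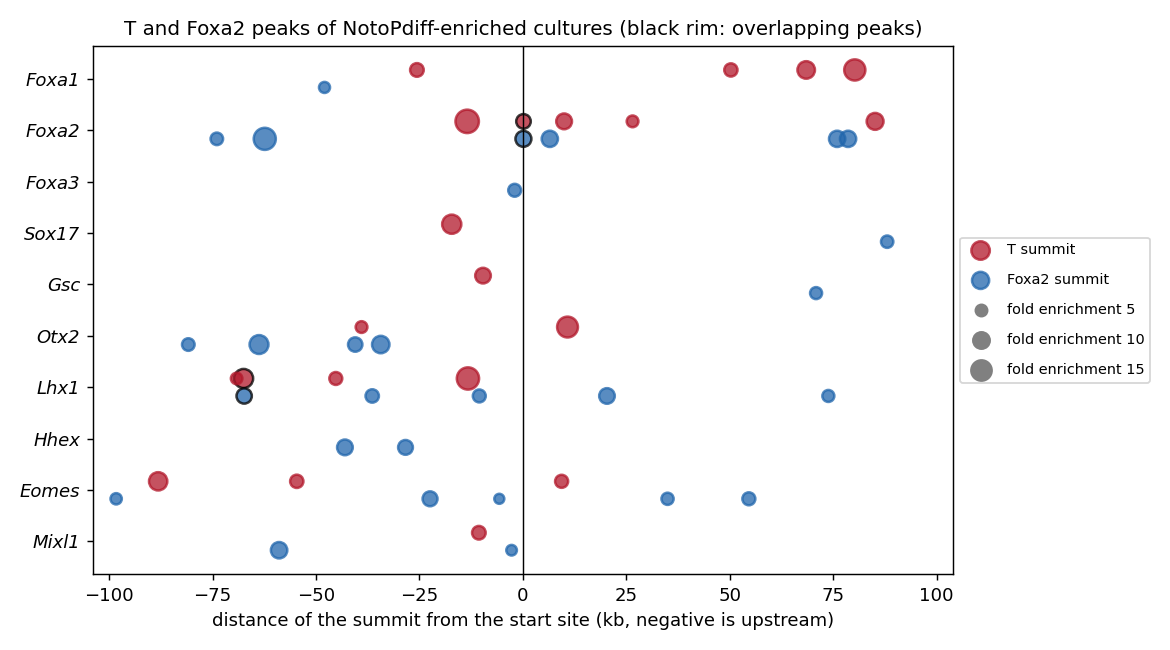
Summits of T peaks (red) and Foxa2 peaks (blue) by distance from the start site of each gene (horizontal axis, kb, negative upstream along the gene), with symbol area proportional to fold enrichment and a black rim where a T and a Foxa2 peak overlap. *Foxa2* and *Lhx1* have the overlapping pairs, *Foxa3* and *Hhex* have no T summit, and the T summit of highest enrichment lies 13.5 kb upstream of *Foxa2*.

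*Foxa2* is the member that the culture system itself supplies, and the sorts of the embryonic cells used its reporter, so its level in these groups is a check and not a finding. It was at 57.0 FPKM in NotoPs at E8.5 and 45.6 FPKM at E9.5, and at 71.2 and 35.6 FPKM in trunk notochord. MPs held 1.25 and 0.86 FPKM, NMPdiff 12.5 FPKM, NotoPdiff 95.5 FPKM and MPdiff 1.22 FPKM. NotoPdiff was thus the highest of all 9 libraries, 1.66-fold over NotoPs of E8.5 and 2.07-fold over those of E9.5, short of the 3-fold rule. The values do not separate transcripts of the transgene from those of the endogenous gene. NMPdiff, which had no doxycycline according to the labels, held 10.3 times the FPKM of MPdiff.

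*Foxa2* (chr2:148042877-148046969, minus strand) had 5 T peaks and 6 Foxa2 peaks, the most of the 10 genes, and no other coding gene starts within 100 kb of it. The strongest T peak near any of the 10 genes lay in intergenic sequence 13460 bp upstream, with a fold enrichment of 18.7, above 96.1% of all T peaks. The strongest Foxa2 peak near any of them lay 62385 bp upstream, with a fold enrichment of 16.6, above 97.1% of all Foxa2 peaks, and held a forkhead motif. The overlapping pair sat at the start of the gene itself, in its first annotated intron, with the T summit 150 bp and the Foxa2 summit 133 bp downstream of the annotated start, 17 bp apart, and fold enrichments of 7.24 and 8.67. Neither summit of the pair had a motif within 50 bp. The 3 windows shown are the strongest T peak, which holds neither motif, the T peak 9965 bp downstream of the start (fold enrichment 8.46), and the Foxa2 peak 6512 bp downstream (8.99), which held both a forkhead motif and the shorter T motif.
Foxa2, T summit 13460 bp upstream (chr2:148060379-148060479): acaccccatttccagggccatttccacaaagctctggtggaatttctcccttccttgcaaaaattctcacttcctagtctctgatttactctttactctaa
Foxa2, T summit 9965 bp downstream (chr2:148036954-148037054): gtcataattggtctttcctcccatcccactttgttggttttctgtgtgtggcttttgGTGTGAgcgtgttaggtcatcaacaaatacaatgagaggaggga
Foxa2, Foxa2 summit 6512 bp downstream (chr2:148040407-148040507): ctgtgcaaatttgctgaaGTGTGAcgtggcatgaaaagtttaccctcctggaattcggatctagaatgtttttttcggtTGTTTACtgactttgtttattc

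*Foxa1*, which overlaps with *Foxa2* in function, separated NotoPs, trunk notochord and NotoPdiff from all other libraries, although no sort used it. NotoPs held 41.7 and 44.3 FPKM at E8.5 and E9.5, trunk notochord 44.2 and 88.0 FPKM, and NotoPdiff 19.2 FPKM. MPs held 3.26 and 0.29 FPKM, NMPdiff 1.57 FPKM and MPdiff 0.10 FPKM. The lowest of the Noto+ libraries, NotoPdiff, was 5.89 times the highest of the others, MP E8.5. NotoPs exceeded MPs 10.0-fold at E8.5 and 35.2-fold at E9.5, and NotoPdiff exceeded MPdiff 18.4-fold. NotoPdiff had 0.47 and 0.45 of the NotoP level at E8.5 and E9.5 on the (FPKM + 1) scale, so that its *Foxa1* was below and its *Foxa2* above that of NotoPs at both stages. In FPKM, the ratio of *Foxa2* to *Foxa1* was 1.37 and 1.03 in NotoPs, 1.61 and 0.40 in trunk notochord, and 4.97 in NotoPdiff.

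*Foxa1* (chr12:57540628-57546916, minus strand) had 4 T peaks and 1 Foxa2 peak within 100 kb. Its strongest T peak lay 80226 bp downstream of the start, in the annotated *Mipol1* gene, with a fold enrichment of 15.2, and 2 further T peaks lay 68479 and 50276 bp downstream, also in *Mipol1* (10.5 and 5.96). The first and the last of the 3 lie in annotated exons of *Mipol1* and the other in an intron. The 4th T peak and the single Foxa2 peak (4.15) lay upstream in introns of *Ttc6*, whose start was nearer to both. Of the Foxa2 list, 6.4% had a lower fold enrichment than that peak.

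*Foxa3*, the Foxa gene of gut endoderm and liver, was low wherever it was listed. It was at 4.16 FPKM in NotoPs, 4.31 FPKM in trunk notochord and 5.09 FPKM in MPs at E8.5, and at 0.32, 1.17 and 0 FPKM in the same cells at E9.5. NMPdiff held 1.00 FPKM, NotoPdiff 0.79 FPKM and MPdiff 0.11 FPKM. All 3 embryonic libraries of E8.5 were above all other libraries, and NotoPdiff was below NotoP E8.5 and above NotoP E9.5. *Foxa3* (chr7:19013284-19023538, minus strand) had no T peak and 1 Foxa2 peak, 1983 bp upstream in an intron of *Sympk* (fold enrichment 5.63), with a forkhead motif in its window. The start of *Sympk* was nearer, and 11 other coding genes start within 100 kb.

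*Sox17*, the definitive endoderm factor, was the endoderm gene of this set with its highest level in NotoPdiff. NotoPdiff held 7.46 FPKM, MP E8.5 5.37 FPKM and NotoP E8.5 3.58 FPKM. NMPdiff held 0.60 and MPdiff 0.55 FPKM, and *Sox17* was listed at 0 in both trunk libraries and in NotoPs and MPs of E9.5. NotoPdiff exceeded MPdiff 5.47-fold and NMPdiff 5.29-fold. Against NotoP E8.5 it was 1.85-fold higher, and *Sox17* was therefore not called against NotoPs of both stages. In level, *Sox17* was above 70.6% of genes in NotoPdiff and 63.4% of genes in NotoP E8.5, whereas *Foxa2* was above 97.8% and 95.1%. *Sox17* (chr1:4490931-4497354, minus strand) had 1 T peak, 17193 bp upstream, with a fold enrichment of 12.5, above 84.9% of all T peaks. Its only Foxa2 peak within 100 kb lay 88052 bp downstream (5.18) and 61 bp from the start of *Rp1*. The T window holds neither motif as an exact match.
Sox17, T summit 17193 bp upstream (chr1:4514497-4514597): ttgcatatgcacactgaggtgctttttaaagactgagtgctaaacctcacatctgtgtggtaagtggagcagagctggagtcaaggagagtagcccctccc

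*Hhex*, a homeobox gene of anterior endoderm, was at 31.0 FPKM in trunk Noto E8.5 and at most 3.35 FPKM in the other 8 libraries. The latter value was that of NotoPdiff. NMPdiff held 2.51 FPKM, NotoP E8.5 2.13 FPKM, trunk Noto E9.5 1.34 FPKM and MPdiff 1.23 FPKM, MP E9.5 and NotoP E9.5 held 0.52 and 0.36 FPKM, and MP E8.5 is listed at 0. NotoPdiff was 1.39-fold above NotoP E8.5 and 3.19-fold above NotoP E9.5, so *Hhex* was not called. *Hhex* (chr19:37434810-37440731, plus strand) had no T peak and 2 Foxa2 peaks, 43010 and 28368 bp upstream in introns of *Kif11* (fold enrichments 8.38 and 7.44), the first with a forkhead motif.

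Markers of other endoderm went with these levels in some libraries and not in others. Most of the 8 visceral and yolk sac endoderm genes make serum proteins or uptake receptors of that tissue. All 8 are listed at 0 in both NotoP libraries. They summed to 60.5 FPKM in trunk Noto E8.5, the library with high *Hhex*, and to 136 FPKM in trunk Noto E9.5, where *Hhex* was low. They summed to 105 FPKM in MP E8.5, where *Sox17* and *Foxa3* were above 5 FPKM, with *Afp* at 62.2 FPKM and *Cubn* at 12.6 FPKM, but to 3.78 FPKM in MP E9.5. In NotoPdiff the list summed to 11.0 FPKM, of which the X-linked homeobox gene *Rhox5* made 8.15 FPKM, and *Ttr*, *Apoa1*, *Apoa4* and *Amn* are listed at 0. The 15 gut and definitive endoderm genes summed to 432 FPKM in trunk Noto E8.5, 325 and 312 FPKM in NotoPs, 320 FPKM in NotoPdiff and 184 FPKM in trunk Noto E9.5. A few genes made most of these sums. *Krt19* was at 285 FPKM in trunk Noto E8.5 and at 96.1 and 160 FPKM in NotoPs. *Cdx2* was at 126 and 107 FPKM in NotoPs, but also at 50.8 and 52.7 FPKM in MPs. In NotoPdiff the largest were *Cldn6* at 126 FPKM and *Trh* at 71.8 FPKM. In trunk Noto E8.5 the list included *Gata6* at 14.5, *Pyy* at 13.2, *Gata4* at 8.43 and *Nepn* at 2.41 FPKM, which were at 0.74 FPKM or less in trunk Noto E9.5 and at 0.30 FPKM or less in NotoPs. In NotoPdiff *Gata6* was at 1.08 and *Gata4* at 0.56 FPKM, and *Pyy* and *Nepn* are listed at 0. The part of such cells in the levels of *Hhex*, *Sox17* and *Foxa3* was not tested.

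*Gsc*, the homeobox gene of the organizer and prechordal plate, is listed at 0 in all 6 embryonic libraries. It was at 11.2 FPKM in NMPdiff, 1.49 FPKM in NotoPdiff and 0.89 FPKM in MPdiff, and NotoPdiff was thus at 13.3% of NMPdiff. *Otx2*, which is needed for the forebrain and midbrain, followed the same order. It was at 13.8 FPKM in NMPdiff, 0.74 FPKM in NotoPdiff and 0.70 FPKM in MPdiff. In the embryo it was at 1.02 FPKM in trunk Noto E8.5, at 0.30 FPKM in NotoP E9.5, and listed at 0 in the other 4 libraries. NotoPdiff and MPdiff differed 1.32-fold for *Gsc* and 1.02-fold for *Otx2*, so that the NotoPdiff traces of both genes were also in MPdiff.

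*Lhx1*, a LIM homeobox gene of the node and anterior mesendoderm, was higher in NotoPdiff than in NotoPs but lower than in MPdiff. NMPdiff held 37.0 FPKM, trunk Noto E9.5 8.64 FPKM, MPdiff 8.36 FPKM, NotoPdiff 4.23 FPKM and trunk Noto E8.5 2.40 FPKM. NotoP E8.5 and MP E9.5 held 0.69 and 0.67 FPKM, and NotoP E9.5 and MP E8.5 are listed at 0. NotoPdiff was 3.10-fold above NotoP E8.5, just past the rule, and 0.56 of MPdiff. In the embryo *Lhx1* was above NotoPs in trunk notochord at both stages, 2.02-fold at E8.5, and NotoPdiff lay between the trunk libraries of E8.5 and E9.5.

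The anterior genes also had T and Foxa2 peaks. *Lhx1* (chr11:84518284-84525535, minus strand) had 4 T peaks and 5 Foxa2 peaks. Its strongest T peak lay 13276 bp upstream, with a fold enrichment of 16.9, above 93.8% of all T peaks. The overlapping pair lay 67499 and 67365 bp upstream, with summits 134 bp apart and fold enrichments of 12.4 for T and 7.99 for Foxa2, and neither window held a motif. Its strongest Foxa2 peak, at 8.28, lay 20331 bp downstream in an intron of *Aatf*, whose start was nearer. The Foxa2 peak 36412 bp upstream (6.10) held the 8-base T motif and no forkhead motif. *Otx2* (chr14:48657677-48673819, minus strand) had 2 T peaks, the stronger in its own intron 10793 bp downstream of the start with a fold enrichment of 14.8, and 4 Foxa2 peaks upstream, all within *Otx2os1*. The strongest of these 4, at 12.2, held a forkhead motif beside a run of alternating bases. *Gsc* (chr12:104471209-104473330, minus strand) had 1 T peak 9633 bp upstream (8.32) and 1 Foxa2 peak 70868 bp downstream (4.90), 4267 bp from the start of *Serpina3n*. The windows shown are the overlapping pair of *Lhx1*, its Foxa2 peak with a T motif, and the strongest Foxa2 peak of *Otx2*.
Lhx1, T summit 67499 bp upstream (chr11:84592984-84593084): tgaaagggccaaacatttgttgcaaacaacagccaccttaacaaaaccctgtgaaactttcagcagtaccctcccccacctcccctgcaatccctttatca
Lhx1, Foxa2 summit 67365 bp upstream (chr11:84592850-84592950): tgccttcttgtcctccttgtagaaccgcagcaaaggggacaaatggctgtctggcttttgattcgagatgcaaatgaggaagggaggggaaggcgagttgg
Lhx1, Foxa2 summit 36412 bp upstream (chr11:84561897-84561997): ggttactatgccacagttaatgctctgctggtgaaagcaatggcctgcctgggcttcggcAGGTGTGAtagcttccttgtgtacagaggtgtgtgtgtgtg
Otx2, Foxa2 summit 63773 bp upstream (chr14:48737542-48737642): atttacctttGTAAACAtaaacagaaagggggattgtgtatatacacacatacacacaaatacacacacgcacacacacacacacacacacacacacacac

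*Eomes*, the T-box gene of the early streak, was highest in NMPdiff. NMPdiff held 54.1 FPKM, MPdiff 5.80 FPKM and NotoPdiff 2.94 FPKM, which is 10.7% and 5.43% of NMPdiff. It was at 0.71 and 0.37 FPKM in MPs of E8.5 and E9.5 and listed at 0 in all 4 NotoP and trunk libraries. NotoPdiff was called against NotoPs because 2.94 FPKM stands against 0, and no fold can be given. MPdiff, which lacks the doxycycline treatment, held more *Eomes* than NotoPdiff and was 3.98-fold and 4.95-fold above MPs of E8.5 and E9.5.

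*Eomes* (chr9:118478212-118486132, plus strand) had 3 T peaks and 5 Foxa2 peaks, and 2 of the 3 T peaks held the 8-base T motif. Those 2 are the only T peaks near the 10 genes that did. They lay 88151 and 54648 bp upstream in intergenic sequence, with fold enrichments of 11.4 and 6.01, and are shown for that motif. The 5 Foxa2 peaks had fold enrichments from 3.39 to 7.58, the highest 22436 bp upstream, and none held a forkhead motif.
Eomes, T summit 88151 bp upstream (chr9:118390011-118390111): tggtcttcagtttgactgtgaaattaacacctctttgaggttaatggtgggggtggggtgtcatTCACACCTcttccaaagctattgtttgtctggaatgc
Eomes, T summit 54648 bp upstream (chr9:118423514-118423614): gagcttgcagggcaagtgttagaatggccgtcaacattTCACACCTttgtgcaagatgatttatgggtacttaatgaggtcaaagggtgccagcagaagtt

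*Mixl1*, a homeobox gene of the streak that promotes endoderm, differed from the other mesendoderm genes in that embryonic NotoPs expressed it. NotoPs held 61.0 and 44.7 FPKM at E8.5 and E9.5, NotoPdiff 55.3 FPKM, NMPdiff 214 FPKM and MPdiff 26.8 FPKM. MPs held 5.67 and 4.00 FPKM, and *Mixl1* is listed at 0 in trunk notochord of both stages. NotoPs exceeded MPs 9.29-fold at E8.5 and 9.16-fold at E9.5, and NotoPdiff lay between the NotoP values of both stages. NotoPdiff exceeded MPdiff 2.03-fold, less than the 3-fold rule, and MPdiff was itself 4.16-fold and 5.56-fold above MPs. *Mixl1* was above 95.5% and 93.8% of genes in NotoPs of E8.5 and E9.5 and above 95.7% of genes in NotoPdiff. *Mixl1* (chr1:180693043-180697034, minus strand) had 1 T peak 10635 bp upstream (fold enrichment 6.31) and 2 Foxa2 peaks, 2727 bp (3.82) and 58920 bp (9.16) upstream, the latter nearer to the start of *Acbd3*. None of the 3 held a motif, and the T window is shown because *Mixl1* had the highest level of the 10 genes in NotoP E8.5.
Mixl1, T summit 10635 bp upstream (chr1:180707619-180707719): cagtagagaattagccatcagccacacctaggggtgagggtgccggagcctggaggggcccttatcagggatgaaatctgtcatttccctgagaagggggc

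Genes with the most similar pattern over the 9 libraries were sought by Pearson's r of log2(FPKM + 1) among 10942 genes with at least 5 FPKM in any library, as a description of these libraries only. For *Foxa2* they were *Sgms1* (r = 0.96), *Moxd1* (0.94) and the keratin gene *Krt18* (0.94), and for *Foxa1* *Aktip* (0.98), *Ddah1* (0.98) and *Lmx1a* (0.97), while *Foxa1* and *Foxa2* had an r of 0.87 with each other. For *Mixl1* they were *S100a11* (0.94), *Dennd2c* (0.94) and *Phf21b* (0.93). For *Sox17* they were *Aldh4a1* (0.94), *Upk3a* (0.92) and *Foxk1* (0.90), and for *Foxa3* *Gtf3c3* (0.95), *Lmbrd2* (0.92) and *Gm13139* (0.91). For *Hhex* they were *1700101E01Rik* (0.97), *Fcho1* (0.96) and *1700009P17Rik* (0.96), all 3 highest in trunk Noto E8.5 like *Hhex* itself.

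For the members highest in NMPdiff, *Gsc* came closest to *Tdgf1* (r = 0.995), which codes for a Nodal co-receptor, followed by *Nrgn* (0.98) and *Psors1c2* (0.98), and *Eomes* to *Mir1949* (0.99), the pluripotency factor gene *Pou5f1* (0.99) and *Chac1* (0.98). *Otx2* came closest to *Exoc3l*, *Dppa5a* and *Nupr1* (0.96 each), and *Lhx1* to *Cox8a* (0.97), *Gnptab* (0.96) and *Fos* (0.96). Among the members, r was 0.97 for *Gsc* with *Eomes*, 0.94 for *Gsc* with *Otx2* and 0.89 for *Otx2* with *Eomes*. *Gsc*, *Otx2* and *Eomes* and the genes closest to them were at 1.02 FPKM or less in every embryonic library and were highest in NMPdiff.

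Marker lists of the neighbouring tissues placed the 10 genes in context. Between NotoPdiff and NotoPs of both stages, 2.59% of all genes that could be called were higher and 1.34% lower. The list counts here and in the paragraphs that follow stand beside these shares. Of 10 genes of anterior mesendoderm and the head organizer, 0 were called in either direction, and 7 could be called. At these shares, 0 of 7 is no result about the list. The median log2 ratio of these 7 was 0.11 against E8.5 and 0.12 against E9.5, beside 0.05 and 0.04 over all genes that could be called. *Cer1*, a gene of anterior endoderm, was at 0.03 FPKM in NotoPdiff against 1.08 and 0 FPKM in NotoPs. *Hesx1*, a forebrain gene, is listed at 0 in these 3 libraries. *Cer1* was highest in MP E8.5, a library sorted as mesoderm, at 20.9 FPKM, followed by trunk Noto E8.5 at 7.58 FPKM. *Nodal*, the ligand that induces mesendoderm, was at 24.5 FPKM in NotoPdiff against 8.56 and 1.54 FPKM in NotoPs, log2 ratios of 1.41 and 3.33, short of 3-fold at E8.5. In the other direction, the Wnt antagonist gene *Dkk1* was at 8.73 FPKM against 21.1 and 40.0 FPKM in NotoPs. The list summed to 65.1 FPKM in NotoPdiff and to 62.7 and 67.0 FPKM in NotoPs. Different genes made these sums. In NotoPdiff *Nodal* and *Frzb* (22.3 FPKM) were the largest, and in NotoPs *Dkk1* and *Frzb* (20.7 and 15.9 FPKM). The list was highest in MPdiff at 104 FPKM, of which *Frzb* made 78.2 FPKM. The sum is therefore no measure of anterior mesendoderm. Of 15 gut and definitive endoderm genes, *Trh*, which codes for thyrotropin releasing hormone, was called higher in NotoPdiff and *Krt19* lower. *Trh* was at 71.8 FPKM in NotoPdiff against 4.09 and 0.47 FPKM in NotoPs, and at 13.9 FPKM in MPdiff, which was called higher than MPs too. *Krt19* was at 30.7 FPKM in NotoPdiff against 96.1 and 160 FPKM. The median of the 8 that could be called was 1.08 and 1.29, and the tight junction gene *Cldn6* was at 126 FPKM in NotoPdiff against 47.0 and 23.9 FPKM in NotoPs, short of 3-fold at E8.5.

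Of 10 primitive streak genes, *Mesp1*, *Tdgf1* and *Nkx1-2* were called higher in NotoPdiff than in NotoPs and 0 lower, with medians of 0.35 and 0.73 over 9 genes. These called genes were below 2 FPKM in NotoPs of both stages and could only be called higher. *Nkx1-2*, a gene of the caudal epiblast, was at 19.2 FPKM against 0.50 and 0.34 FPKM. *Mesp1*, a gene of early mesoderm, was at 2.76 FPKM against 0. Of 8 epiblast and pluripotency genes, *Pou5f1*, *Fgf4* and *Tdgf1*, which is on both lists, were called higher and 0 lower, with a median of 1.81 over 5 genes against both stages. All of these called genes are listed at 0 in NotoPs, so they could only be called higher, and the median rests on them. *Pou5f1* was at 10.7 FPKM in NotoPdiff, 13.1 FPKM in MPdiff and 269 FPKM in NMPdiff, and listed at 0 in both NotoP libraries. *Mesp1*, *Tdgf1* and *Pou5f1* were called higher in MPdiff than in MPs as well.

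Of 8 notochord genes, *Noto*, *Shh* and *Lmx1a* were lower in NotoPdiff and 0 higher, with medians of -1.24 and -1.04 over all 8, and *Lmx1a* was at 9.31 FPKM against 45.2 and 42.8 FPKM. Of 8 neural tube and floor plate genes, *Irx3* was lower, at 2.34 FPKM against 18.5 and 19.2 FPKM, with 0 higher, and only 2 could be called. Of 8 visceral endoderm genes, *Rhox5* and *Fgb*, a fibrinogen gene, were higher (8.15 and 2.60 FPKM against 0) and 0 lower, and only these 2 could be called. With NotoPs at 0, both could only be called higher. *Rhox5* was higher still in MPdiff, NMPdiff and MP E8.5, at 14.9, 16.4 and 16.2 FPKM. *Fgb* is listed at 0 in those libraries. Of 8 presomitic mesoderm genes, 0 were called, with medians of -0.89 and -0.66 over 6 genes. Of 8 blood genes, 0 could be called, and their summed level was at most 2.27 FPKM in any library.

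**Figure D4:**
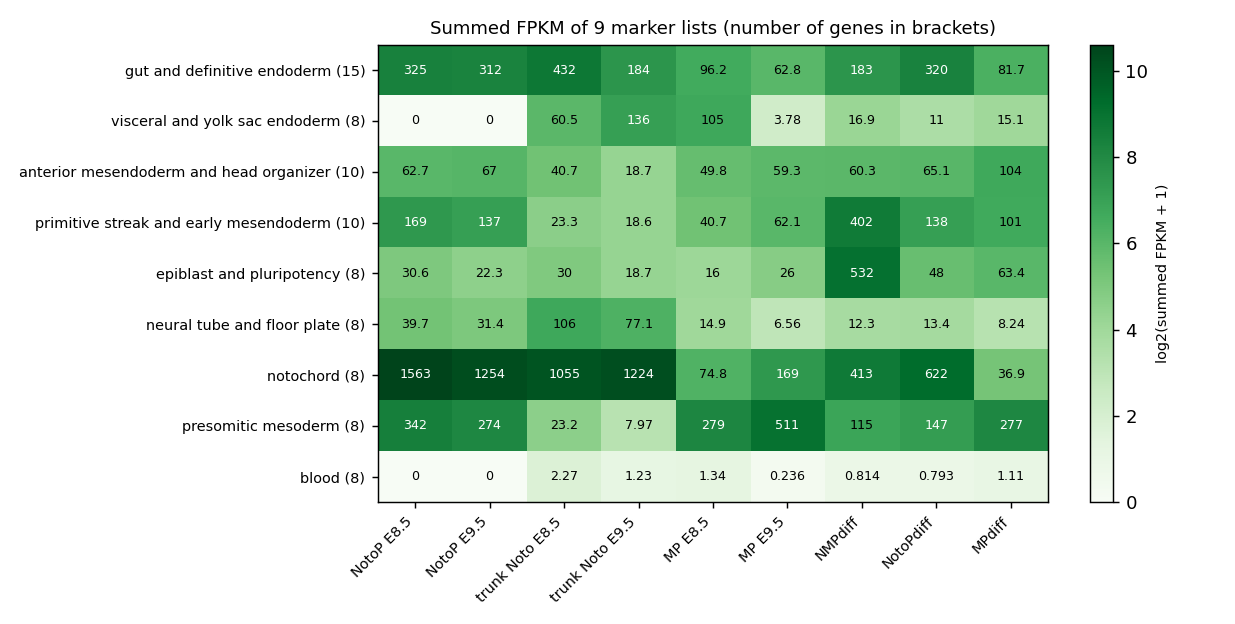
Summed FPKM of 9 marker lists (rows, number of genes in brackets) in the 9 libraries (columns), with colour by log2(summed FPKM + 1) and the summed value printed in each cell. The anterior mesendoderm list is at 62.7 to 67.0 in NotoPs, 65.1 in NotoPdiff and highest in MPdiff at 104. The epiblast list is at 532 in NMPdiff and 48.0 in NotoPdiff, and the visceral endoderm list is at 0 in NotoPs.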

How the data were processed

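Of the 21 samples, 11 were analysed (9 RNA-seq and 2 ChIP-seq libraries, 1 per condition), and the 10 ATAC-seq and histone mark samples were not used here. RNA reads were trimmed by the authors, mapped to mm10 (TopHat2 2.1.1) and cleared of copies by unique molecular identifiers, and the deposited FPKM values come from Cufflinks 2.2.1, which scale by transcript length and library size, correct for sequence bias and hold no read counts, so no counting interval is given. All 9 columns were used. For ChIP-seq, the authors aligned reads with Bowtie 1.3.1 and called peaks on each library with MACS3 3.0.0b1 at a q cutoff of 0.1. The deposited lists give for each peak the fold enrichment, −log10 of p and q and a score, of which fold enrichment, −log10 q and the summit were used. Versions follow the submitters' processing notes.

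Log2 ratios were taken after adding 1 to each FPKM value. Gene positions came from GENCODE and sequences from RefSeq's GRCm38.p6 genome, the same build as mm10, and 0 peaks lay beyond a chromosome's end. Positions count from 1, and a peak belonged to a window by its summit. Shared peaks overlap by at least 1 bp. The members and the marker lists were chosen with earlier results of these data known. Named genes are all members, *Noto*, *T* and *Shh*, up to 4 called genes per list and direction, and the 3 genes most correlated with each member. Other list genes named (*Afp*, *Cubn*, *Ttr*, *Apoa1*, *Apoa4*, *Amn*, *Cer1*, *Hesx1*, *Dkk1*, *Nodal*, *Frzb*, *Gata4*, *Gata6*, *Pyy*, *Nepn*, *Cdx2* and *Cldn6*) were chosen after their values were seen. Of the strongest peaks, those named are the highest of each factor per gene and all shared ones, with others named for a motif. The fold rule and overlap rules were tested on simulated data. Alternatives changed the pseudocount, fold, scaling, libraries, window, q cutoff, overlap and motif rule. Scripts ran under Python 3.11.15 with numpy 2.4.6, pandas 2.3.3, pysam 0.24.0 and matplotlib 3.10.9.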

Additional observations from a re-analysis of the deposited data

How the results depend on the processing

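Of 63 counts recomputed under the alternatives, 42 stayed within 1.5 times of the value reported. *Foxa1*, *Foxa2* and *Sox17* in NotoPdiff against NMPdiff, and *Foxa1*, *Foxa2* and *Mixl1* in NotoPs against MPs, were called under all settings tried except *Sox17* at a pseudocount of 5, which was also lost there against MPdiff. Of the 5 members lower than NMPdiff, *Gsc* was lost at a pseudocount of 5, and *Gsc* and *Mixl1* at 5-fold. The count of 2 members between NotoPdiff and NotoPs (*Lhx1*, *Eomes*) was 0 at a pseudocount of 5, 0 at 5-fold and 4 at 2-fold, and with trunk notochord in place of NotoPs it was 3, made up of *Sox17*, *Eomes* and *Mixl1*. For MPdiff against MPs the count of 3 became 5 at a pseudocount of 0.1, 0 at 5 and 1 at 5-fold. For trunk notochord against NotoPs the count of 1 became 3 at a pseudocount of 0.1 and 2 at 2-fold. The 13 called list genes became 20 at a pseudocount of 0.1, 7 at 5, 24 at 2-fold, 7 at 5-fold and 28 against trunk notochord. With MP E9.5 in place of MP E8.5, the 3 members of each MP comparison were the same. A shared T and Foxa2 peak was found for 1 of 10 members within 50 kb (4.75% of coding genes), 6 within 250 kb (21%) and 1 with summits at most 100 bp apart (6.9%). T motifs lay at 8 of 21 summits within 100 bp (31.2% of all T summits), 19 with 1 mismatch (81.9%) and 1 at positions 10 kb away (6.2%). Forkhead motifs lay at 21 of 28 with 1 mismatch (82.4% of all Foxa2 summits) and 0 at positions 10 kb away (3.36%). These changes came with a change of the added constant, threshold, libraries, window, overlap or motif rule, and their cause was not tested. Rescaling the libraries by the median of ratios changed 0 of these counts and moved the median of all genes by at most 0.03 on the log2 scale. Of 90 single ratios under an alternative, 0 changed direction after a call and 78 stayed on the same side of 3-fold. No paired analysis was possible because every group holds replicate 1 only; stages were paired within the call rule itself. No value has a replicate error, and differences describe these libraries.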
